A study of Mus musculus with 6 samples.

Results

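The 5 genes that encode the chains of the interleukins IL-12, IL-23 and IL-27 were followed in colonic lamina propria macrophages (MΦs): Il12a, Il12b, Il23a, Il27 and Ebi3. They were taken from the expression table by gene symbol, and all 5 were present among its 14097 genes. The MΦs were P3/P4 cells, the resident fraction sorted as CD45+CD11b+CD11cintCD103-CD64+Ly6C-MHCII+, from untreated mice of the 129SvEv strain. Il10rb-/- mice lack the beta chain of the IL10 receptor, which receptors for IL22 and other cytokines also use, in every cell of the body, and Il10rb+/- mice, the controls, carry 1 intact copy. RNA sequencing gave 6 libraries, 1 for each pairing of genotype with an age of 1, 3 or 12 weeks. A single mouse supplied each of the 3-week and 12-week libraries, and a pool of mice (3 to 5 by the series description) each of the 1-week libraries, so that the genotypes cannot be compared over replicates at any one age. Values are normalized counts, which are reads on a gene divided by the size factor of the library. Intervals are exact Clopper-Pearson 95% intervals from the reads and cover counting error only. The study itself named Il12a, Il12b and Il23a from these libraries as higher at 12 weeks and apparently higher at 3 weeks. Their direction here is therefore not independent evidence. At 1 week the study detected no significant difference in these genes. It checked selected genes by qRT-PCR on sorted P3/P4 MΦs of infant mice, with 6 in each group.

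The IL-12 family is built by sharing chains. IL-12 pairs p35 (Il12a) with p40 (Il12b), IL-23 pairs p19 (Il23a) with the same p40, IL-27 pairs p28 (Il27) with EBI3 (Ebi3), and IL-35 pairs p35 with EBI3. IL-12 drives interferon-γ production by T and natural killer cells, IL-23 sustains lymphocytes that make IL17 and IL22, and IL-27 can both promote and restrain T cell responses, in part by inducing IL10. Intestinal mononuclear phagocytes are a main source of IL-23, IL10 is known to repress p40 and p35 transcription in MΦs, and IL-23 is required for colitis in mice that lack IL10. mRNA levels do not show how much of each chain is paired or secreted.

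On GRCm38 (mm10), Il12a (ENSMUSG00000027776) lies at chr3:68690644-68698547 on the plus strand with 1701 bp of merged exons, and Il12b (ENSMUSG00000004296) at chr11:44400063-44414033 on the plus strand with 1967 bp. Il23a (ENSMUSG00000025383) lies at chr10:128296139-128298752 on the minus strand with 2247 bp. Il27 (ENSMUSG00000044701) lies at chr7:126589010-126594941 on the minus strand with 1021 bp, of which 103 bp (10.1%) overlap exons of Apobr on the opposite strand. Ebi3 (ENSMUSG00000003206) lies at chr17:55952640-55957022 on the plus strand with 1154 bp, of which 270 bp (23.4%) overlap the antisense gene Gm16712. The strand setting of the read counting is not given in the sources used here, so the levels of Il27 and Ebi3 are uncertain to that extent.

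The promoters of Il12b, Il12a and Ebi3 are shown, 3 genes that the text sets against each other; those of Il23a and Il27 were not analysed here. Each window spans 300 bases around the annotated start, the last 50 of them from the start onward (RefSeq, GRCm38.p6, plus strand): chr11:44399813-44400112 for Il12b, chr3:68690394-68690693 for the first of 2 Il12a starts, and chr17:55952373-55952672 for Ebi3. Capitals in Il12b mark the NF-κB half-site, which reads GGGAATTTT on the minus strand at -131 to -123.
Il12b: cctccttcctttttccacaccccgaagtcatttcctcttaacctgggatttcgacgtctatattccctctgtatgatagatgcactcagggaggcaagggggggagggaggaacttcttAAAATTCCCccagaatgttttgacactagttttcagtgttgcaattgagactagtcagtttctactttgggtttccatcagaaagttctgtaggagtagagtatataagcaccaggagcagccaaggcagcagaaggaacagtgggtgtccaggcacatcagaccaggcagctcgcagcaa
Il12a: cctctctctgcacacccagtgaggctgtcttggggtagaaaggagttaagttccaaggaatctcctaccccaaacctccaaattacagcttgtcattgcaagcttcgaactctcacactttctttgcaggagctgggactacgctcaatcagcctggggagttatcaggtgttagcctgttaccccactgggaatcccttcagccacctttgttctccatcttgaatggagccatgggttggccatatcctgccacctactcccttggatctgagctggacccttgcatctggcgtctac
Ebi3: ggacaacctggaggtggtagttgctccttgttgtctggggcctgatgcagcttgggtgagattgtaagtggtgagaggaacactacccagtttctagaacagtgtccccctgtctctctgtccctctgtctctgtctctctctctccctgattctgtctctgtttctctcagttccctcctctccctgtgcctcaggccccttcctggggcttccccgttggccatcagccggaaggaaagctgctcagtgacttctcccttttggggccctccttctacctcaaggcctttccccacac
The half-site is known from this very promoter and was searched for that reason, so that its presence is no finding. It occurred in 0.310% of the 32851 windows of the same length, on either strand. In the 4 windows of these genes (2 of Il12a), no other match was found to the half-site or to TTGCNNAA for C/EBP (in 10.8% of all windows), TGANTCA for AP-1 (7.81%), GAAANNGAA for interferon-responsive elements (8.56%), GAGGAAGT for PU.1 (3.202%) or TATAAA (13.6%). The search spelled these letters exactly and says nothing of binding.

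By the reads behind the table, depth ran from 6700337 (3-week Il10rb+/-) to 40754971 (12-week Il10rb+/-) reads on genes. The targeted gene Il10rb had 386 to 2341 reads in the Il10rb+/- libraries and 8 to 43 in the Il10rb-/- libraries. Reads on 4 Y-linked genes numbered 1123 in the 1-week Il10rb+/- pool and 5 to 46 in the other libraries, so that at 1 week sex and genotype cannot be told apart. Defining MΦ markers were abundant in all libraries (Csf1r 46878 to 80123 and Cd68 9221 to 14743 normalized counts). In the 4 libraries of 1 and 3 weeks T cell Cd3e, neutrophil S100a8 and dendritic cell Clec9a were under 15 normalized counts, but other listed markers of these and further cells were not: Ccr7 had 1029 to 3159, Fscn1 436 to 1797, Csf3r 1414 to 2120, Il7r 292 to 812 and B cell Cd79b 308 to 868.

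Il23a, which encodes the chain particular to IL-23, was higher in the Il10rb-/- library at every age. It had 77.3, 110 and 1041 normalized counts in Il10rb+/- MΦs at 1, 3 and 12 weeks and 270, 616 and 10458 in Il10rb-/- MΦs. Both genotypes were lowest at 1 week and highest at 12 weeks, and the ranges of the genotypes overlapped, since the 12-week Il10rb+/- library lay above the Il10rb-/- libraries of the younger ages. The Il10rb-/- library held 3.49-fold more at 1 week (log2 ratio 1.80, interval 1.41 to 2.20), 5.62-fold more at 3 weeks (2.49, 2.06 to 2.96) and 10.04-fold more at 12 weeks (3.33, 3.26 to 3.39). From 1 to 12 weeks the level was 13.5-fold higher in Il10rb+/- and 38.8-fold higher in Il10rb-/- MΦs.

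Il12b, which encodes the p40 chain shared by IL-12 and IL-23, differed mainly at 3 weeks. It had 221, 80.3 and 1225 normalized counts in Il10rb+/- MΦs at 1, 3 and 12 weeks and 271, 885 and 2056 in Il10rb-/- MΦs. The 3-week Il10rb+/- library was the lowest of the 6, with 33 reads, and both 12-week libraries were the highest. The ratio was 1.23-fold at 1 week (log2 0.29, interval 0.00 to 0.58), 11.02-fold at 3 weeks (3.46, 2.96 to 4.01) and 1.68-fold at 12 weeks (0.75, 0.67 to 0.82). Between 1 and 3 weeks the level was 2.75-fold lower in the control (log2 -1.46, -2.04 to -0.93) and 3.26-fold higher in Il10rb-/- MΦs (1.71, 1.48 to 1.94). Between 3 and 12 weeks it was 15.2-fold higher in Il10rb+/- and 2.32-fold higher in Il10rb-/- MΦs.

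Il12a, which encodes the p35 chain of IL-12, was near the detection limit in 4 of the libraries. It had 3, 0 and 20 reads in Il10rb+/- MΦs at 1, 3 and 12 weeks (2.97 and 9.46 normalized counts at 1 and 12 weeks) and 7, 38 and 1155 reads in Il10rb-/- MΦs (10.5, 33.4 and 735 normalized counts). Only the 12-week Il10rb-/- library stood clear of low counts, and Il12a reached the filter of 50 normalized counts through that library alone. No Il10rb+/- library reached the lowest Il10rb-/- library, although at 1 week this rests on 3 and 7 reads, and the log2 ratio of 1.82 had an interval of -0.31 to 4.40. At 3 weeks the level was at least 4.58-fold higher in Il10rb-/- MΦs against a floor of 3 reads in the control, a bound that leaves out counting error (the interval of the log2 ratio began at 1.83). At 12 weeks it was 77.8-fold higher (log2 6.28, 5.65 to 7.00).

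Il27, which encodes p28 of IL-27, had the opposite order of the genotypes at 1 week and at the later ages. It had 103, 122 and 107 normalized counts in Il10rb+/- MΦs and 50.9, 180 and 400 in Il10rb-/- MΦs at 1, 3 and 12 weeks. The control libraries lay close together, whereas the Il10rb-/- libraries included both the lowest and the highest of the 6. The 1-week Il10rb-/- pool held 2.02-fold less than the control (log2 -1.02, interval -1.62 to -0.45, on 34 and 104 reads). The Il10rb-/- library held 1.48-fold more at 3 weeks (0.57, 0.11 to 1.04) and 3.74-fold more at 12 weeks (1.90, 1.68 to 2.13). From 1 to 12 weeks the log2 difference was 0.05 (-0.29 to 0.40) in Il10rb+/- and 2.97 (2.48 to 3.52) in Il10rb-/- MΦs.

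Ebi3, which encodes the partner of p28, varied least of the 5 genes. It had 1467, 1229 and 1005 normalized counts in Il10rb+/- MΦs and 1692, 1329 and 721 in Il10rb-/- MΦs at 1, 3 and 12 weeks. Each later age was lower than the one before it in both genotypes, and the 12-week Il10rb-/- library was the lowest of the 6. The log2 ratio was 0.21 (0.09 to 0.32) at 1 week, 0.11 (-0.03 to 0.26) at 3 weeks and -0.48 (-0.58 to -0.37) at 12 weeks. The log2 difference from 1 to 12 weeks was -0.55 in Il10rb+/- and -1.23 in Il10rb-/- MΦs.

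**Figure D1:**
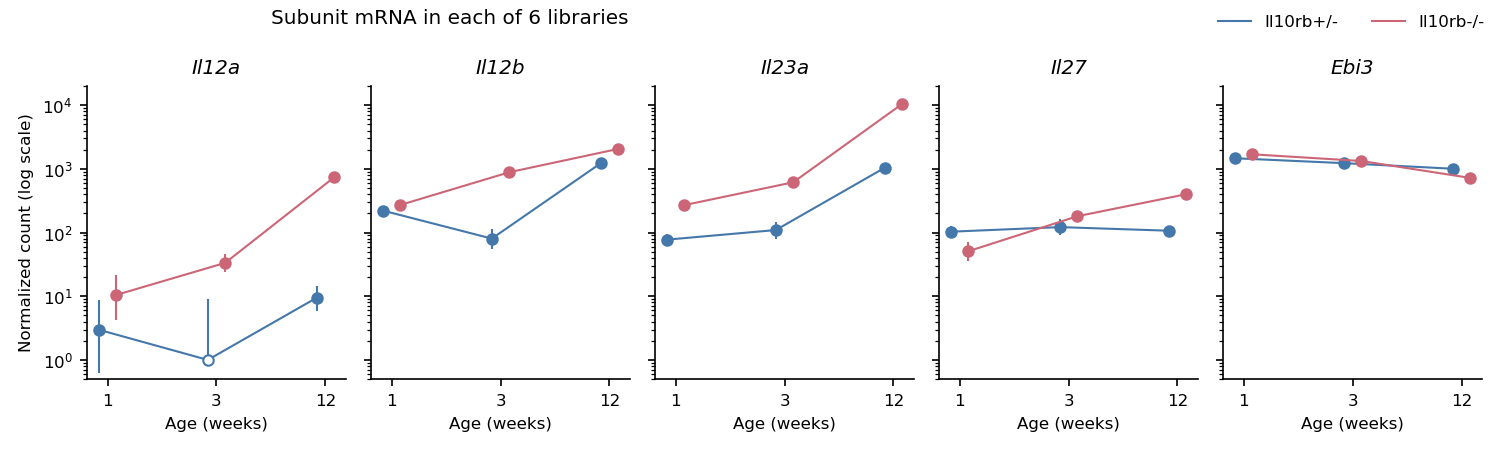
Normalized count on a log scale (y axis) of each subunit gene at 1, 3 and 12 weeks (x axis, ages evenly spaced), 1 point per library with its 95% counting interval, for Il10rb+/- (blue) and Il10rb-/- (red) MΦs. The open circle marks the 3-week Il10rb+/- library, which held 0 Il12a reads and is shown at 1 as deposited. Il23a in Il10rb-/- MΦs lies above the control at each age, while the lines of Il27 and Ebi3 cross.

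Across the ages, no subunit gene passed the test of genotype over all 6 libraries, fitted with a term for age (limma, Benjamini-Hochberg adjusted p over 11067 genes). The error of this test is the variation of the genotype difference between ages. It called 0 of 11067 genes (percent called 0), and 853 of them had an unadjusted p under 0.05. Even the targeted gene Il10rb was not called (log2 difference -5.68, limma adjusted p 0.0616). A gene or list without a call in this test is therefore not shown to be unchanged. Leaving out 1 library gave 0 to 74 calls. Il23a had a mean log2 difference of 2.53 (SE 0.31), was higher at 3 of 3 ages and had an unadjusted p of 2.63e-04, the 7th smallest of all genes, with an adjusted p of 0.372 (4.35e-04 to 0.598 over the alternatives). Il12a gave 3.92 (SE 1.10, higher at 3 of 3 ages) with an unadjusted p of 0.0135 and a limma adjusted p of 0.627 (0.121 to 0.811). Il12b gave 1.495 (SE 0.61, higher at 3 of 3 ages) with an unadjusted p of 0.0531 and a limma adjusted p of 0.627 (0.136 to 0.852). Its log2 difference was 0.52 without either 3-week library, whose control held 33 reads, and 2.10 without either 1-week library, and that of Il12a ranged from 2.82 to 5.12. Il27 gave 0.48 (SE 0.55) and Ebi3 -0.05 (SE 0.19), each higher at 2 of 3 ages, with limma adjusted p of 0.774 (0.421 to 0.966) and 0.940 (0.811 to 0.968).

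The call of Il23a turned on the libraries of 1 and 12 weeks. Without either 1-week library its adjusted p was 0.0373 or 0.0288, and without either 12-week library it was 4.35e-04 or 0.00145 (limma), since the remaining library of that age no longer bears on the genotype difference. The same fits called 18, 18, 74 and 63 of all genes. Among all genes 4.4% were higher at an unadjusted p under 0.05, and Il23a and Il12a were. All Il10rb-/- libraries lay above all Il10rb+/- libraries for 2.86% of genes, and among the subunit genes for Il12a, where the nearest libraries held 7 reads (1-week Il10rb-/-) and 20 reads (12-week Il10rb+/-) with overlapping intervals. Since Il12a was tested only through the library where it was highest, neither its p nor this separation counts as support.

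At 1 week, 2.75% of the 11067 genes were over 3-fold higher in the Il10rb-/- library, the fold mark of the study. The subunit genes past it were Il23a and, on 3 and 7 reads, Il12a. At 3 weeks 1.34% of genes passed it, and Il12b and Il23a did, as did Il12a, whose values of that age lay under the filter in both libraries. With the filter set on the libraries compared, in place of all 6, the number of genes past the mark was 90 and not 304 at 1 week and 78 and not 148 at 3 weeks. At 12 weeks 4.03% of genes passed it, and Il12a, Il23a and Il27 did. No subunit gene was over 3-fold lower at any age. The median log2 ratio of all genes was -0.04, 0.02 and 0.04 at 1, 3 and 12 weeks, and scaling by total reads moved the 12-week median to -0.19. With that scaling the 12-week log2 ratios were 3.11 for Il23a, 0.53 for Il12b and -0.70 for Ebi3.

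**Figure D2:**
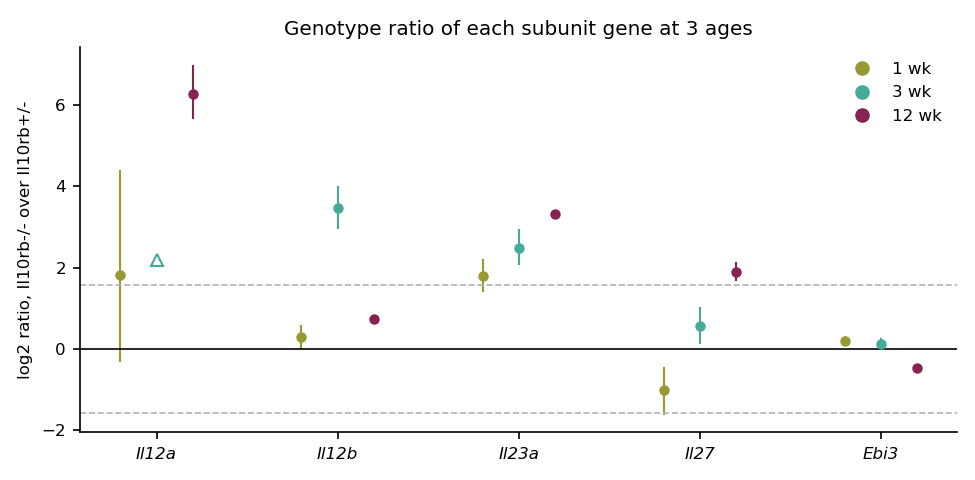
Log2 ratio of normalized counts, Il10rb-/- over Il10rb+/- (y axis), of each subunit gene (x axis) at 1, 3 and 12 weeks (colors), with bars for the 95% counting interval, a solid line at 0 and dashed lines at 3-fold. The open triangle is the lower bound for Il12a at 3 weeks (at least 4.58-fold). Il23a and Il27 have their highest ratios at 12 weeks (3.33 and 1.90) and Il12b at 3 weeks (3.46).

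Markers of other cells differed between the genotypes at each age. At 1 week the summed normalized counts of 8 epithelial markers were 956 in the Il10rb-/- and 183 in the Il10rb+/- pool, with 8 of 8 higher and 4 over 3-fold. Of all genes tested, 2.75% were over 3-fold higher. The sum of 5 monocyte markers was 11088 against 4310 in the control pool, mainly through Ccr2 (10700 against 3960), with 2 of the 5 higher. That of 6 B and plasma cell markers was 1457 against 2297. At 3 weeks the sum of 9 dendritic cell markers was 4391 against 2115 in the control, mainly through Ccr7 (3159 against 1029). Of the 7 past the filter 3 were higher, with a median log2 ratio of -0.03. The monocyte sum was 21484 against 21330, with 3 of 5 markers higher. Ly6c2 (285 against 9.73) and Plac8 (1706 against 513) were over 3-fold higher, as were 1.34% of all genes tested. Chil3 was lower (26.4 against 97.3). The epithelial sum was 729 against 1482, with 1 of 8 markers higher. That of B and plasma cell markers was 742 against 1076, with 1 of 6 higher. In the 12-week Il10rb-/- library the summed normalized counts of 5 monocyte markers were 32002 against 13458 in the control, those of 6 neutrophil markers 12191 against 1835, those of 9 dendritic cell markers 41889 against 11874 and those of 8 epithelial markers 2203 against 908. Over the other 4 libraries the sums ranged from 4310 to 21484 (monocyte), 1448 to 2147 (neutrophil), 2115 to 4391 (dendritic) and 183 to 1482 (epithelial). Of the markers past the filter, 4 of 5 monocyte, 4 of 5 neutrophil, 2 of 7 dendritic and 4 of 8 epithelial markers were over 3-fold higher at 12 weeks. The share of all genes tested was 4.03%. The neutrophil markers S100a8, S100a9 and Cxcr2 reached the filter through the 12-week Il10rb-/- library alone, so that their count follows in part from the filter. Of the 12 MΦ markers 4 were higher, with a median log2 ratio of -0.72, whereas 52.0% of all genes tested were higher. Cx3cr1 had 906 against 8074 normalized counts, while the sum of the 12 was 677528 against 623787. Most of the dendritic sum was Ccr7 (38707 against 10331), while Clec9a stood at 3.18 and Zbtb46 at 397 against 178. All 6 B and plasma cell markers were lower, with a median log2 ratio of -2.98 and a sum of 1906 against 17550. Of 8 T cell and innate lymphoid markers, 6 were higher, such as Cd3g (154 against 26.0), Cd3e (93.0 against 39.7) and Lck (303 against 108). Cd4 (210 against 1712) and Il7r (947 against 1750) were lower and set the sum of 1804 against 3661. Cd4 had 3227 and 2422 normalized counts in the 1-week control and Il10rb-/- pools, where Cd3e had 0 and 1 reads. Neither Cd4 nor this sum therefore marks T cells alone. The neutrophil marker Ly6g and the T cell marker Cd8a had 0 reads in the 12-week control and 25 and 41 in the Il10rb-/- library. Their part in the subunit levels was not tested, and in sorted bulk RNA fewer cells of a type and less RNA per cell cannot be told apart.

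Levels of different genes were compared as normalized counts per kb of merged exons. On this scale Ebi3 was the highest of the 5 genes in every library except that of 12-week Il10rb-/- MΦs. It held 871 to 1467 per kb in those 5 libraries, between the 91.7th and the 95.9th percentile of all genes. In the 12-week Il10rb-/- library the order was Il23a (4654 per kb), Il12b (1045), Ebi3 (625), Il12a (432) and Il27 (392), and the counting intervals of the last 2 overlapped. Il23a stood at the 97.9th percentile of all genes in that library and at the 84.8th in the control of the same age. Il12a was the lowest of the 5 in the other 5 libraries, at 0 to 19.6 per kb.

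The make-up of the 5 mRNAs differed accordingly. Ebi3 made up 83.6%, 83.6% and 42.1% of their summed reads per kb in Il10rb+/- MΦs at 1, 3 and 12 weeks and 82.4%, 55.6% and 8.74% in Il10rb-/- MΦs. Il23a made up 2.26%, 3.83% and 22.4% in Il10rb+/- and 6.74%, 13.2% and 65.1% in Il10rb-/- MΦs. Il12b made up between 3.21% (3-week Il10rb+/-) and 30.1% (12-week Il10rb+/-), and Il27 between 2.80% and 9.36%. Il12a was under 1% in every library except 12-week Il10rb-/- (6.05%). Ebi3 led in both genotypes at 1 week, and the 12-week Il10rb-/- library was the only one in which Il23a led.

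**Figure D3:**
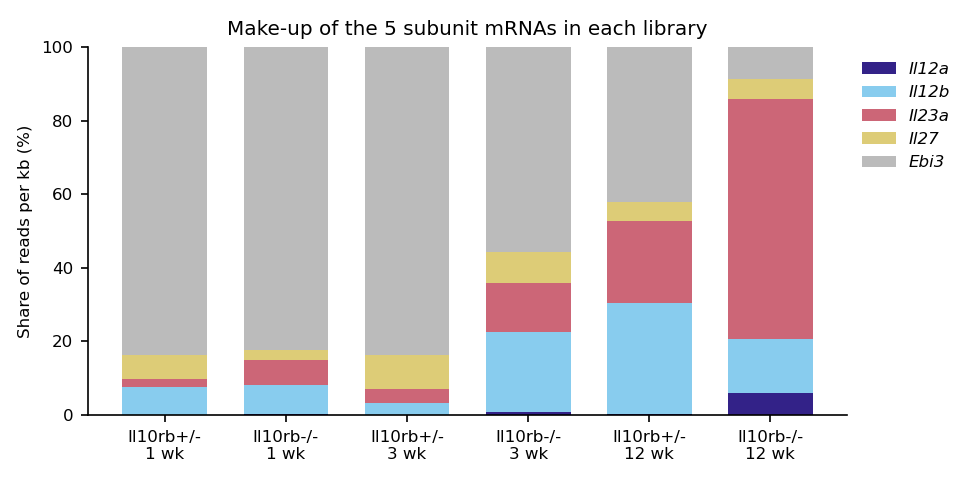
Share of each subunit gene in the summed reads per kb of the 5 genes (y axis, %), with 1 stacked bar for each of the 6 libraries (x axis). Ebi3 (grey) takes 82.4% to 83.6% of the 1-week bars and the 3-week Il10rb+/- bar, and Il23a (red) takes 65.1% of the 12-week Il10rb-/- bar.

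For IL-23, the mRNAs of the chains were within 2-fold of each other in 4 of the 6 libraries. The ratio of Il12b to Il23a per kb was 3.27, 0.838 and 1.34 in Il10rb+/- MΦs at 1, 3 and 12 weeks and 1.15, 1.64 and 0.225 in Il10rb-/- MΦs. The 12-week Il10rb-/- library stood apart, with Il23a 4.45-fold over Il12b (interval 4.29 to 4.62). The Il10rb-/- minus Il10rb+/- difference in the log2 ratio was -1.51 (-1.98 to -1.03) at 1 week, 0.97 (0.31 to 1.63) at 3 weeks and -2.58 (-2.68 to -2.48) at 12 weeks. Over the 3 ages the mean was -1.04 ± 1.82 (SD, n = 3; exact two-sided sign-flip permutation test p = 0.5, where the smallest possible p is 0.25).

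For IL-12, the p40 mRNA was in large excess over p35 except in one library. Il12b per kb was 64.3-fold (interval 21.7 to 314) and 112-fold over Il12a in Il10rb+/- MΦs at 1 and 12 weeks and at least 9.51-fold at 3 weeks (lower end of the interval 7.31). In Il10rb-/- MΦs it was 22.4-fold, 22.9-fold and 2.42-fold (2.26 to 2.59) over Il12a at 1, 3 and 12 weeks. At 12 weeks the genotypes differed by -5.53 in the log2 ratio (-6.18 to -4.89), and at 1 week by -1.52 with an interval that included 0 (-3.50 to 0.45). At 3 weeks, with the control at the floor of 3 reads, the difference was at most 1.27, a bound of the opposite sign (interval -0.50 to 3.04). Over the 3 ages the mean was -1.93 ± 3.42 (SD, n = 3, with the 3-week control at the floor of 3 reads), and the exact sign-flip p was 0.5.

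Il12a and Il23a, whose products share p40 as a partner, summed to 0.322, 1.19 and 0.753 of the Il12b level per kb in Il10rb+/- MΦs at 1, 3 and 12 weeks. In Il10rb-/- MΦs the sum was 0.915 and 0.653 of Il12b at 1 and 3 weeks and 4.87 at 12 weeks. The 12-week Il10rb-/- library was the one in which these mRNAs together exceeded that of p40 beyond counting error. Il23a was over Il12a in each library, by 19.7-fold and 19.5-fold at 1 week, 13.9-fold in 3-week Il10rb-/-, 83.3-fold in 12-week Il10rb+/- and 10.8-fold in 12-week Il10rb-/- MΦs, and by at least 11.4-fold in 3-week Il10rb+/- MΦs (lower end of the interval 8.86).

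For IL-27, Ebi3 exceeded Il27 in each library and least in 12-week Il10rb-/- MΦs. The ratio per kb was 12.6, 8.94 and 8.32 in Il10rb+/- and 29.4, 6.52 and 1.59 (1.45 to 1.76) in Il10rb-/- MΦs at 1, 3 and 12 weeks. The genotype difference in the log2 ratio was 1.22 (0.65 to 1.79), -0.45 (-0.92 to 0.01) and -2.38 (-2.63 to -2.14) at these ages. The mean was -0.54 ± 1.80 (SD, n = 3; exact sign-flip p = 0.75), and without the 12-week libraries it was 0.38. For IL-35, the ratio of Ebi3 to Il12a was 727 and 157 in Il10rb+/- MΦs at 1 and 12 weeks, at least 248 at 3 weeks (lower end of the interval 201), and 238, 58.6 and 1.44 in Il10rb-/- MΦs. Its log2 difference averaged -3.48 ± 2.85 (SD, n = 3, 3-week control at the floor; exact sign-flip p = 0.25) and was negative at each of the 3 ages.

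**Figure D4:**
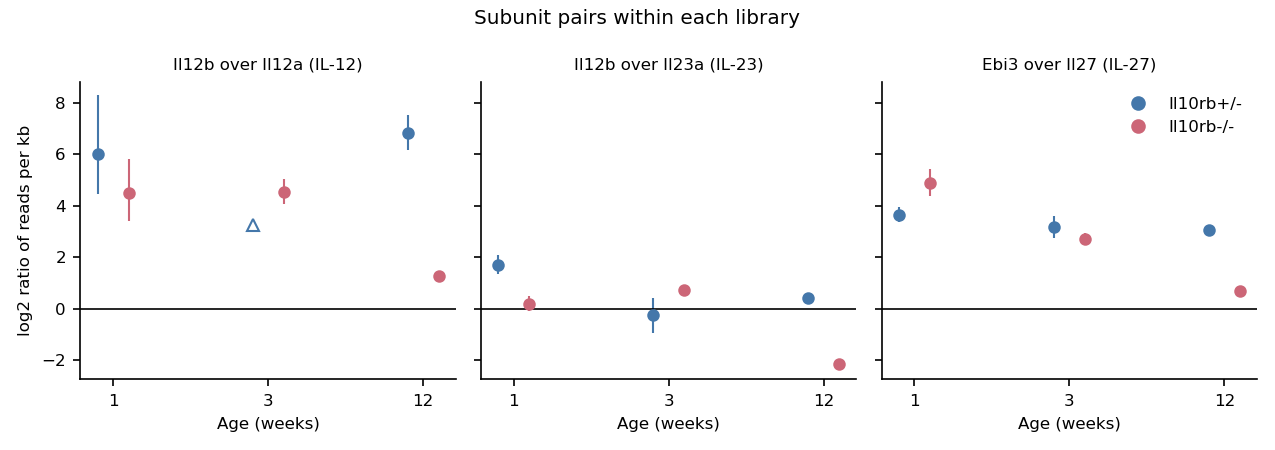
Log2 ratio of reads per kb of paired subunit genes within each library (y axis) at 1, 3 and 12 weeks (x axis), for Il10rb+/- (blue) and Il10rb-/- (red) MΦs, with bars for the 95% counting interval and the open triangle for the lower bound where Il12a had 0 reads. In all 3 panels the 12-week Il10rb-/- library has the lowest estimated ratio: 2.42 for Il12b over Il12a, 0.225 for Il12b over Il23a and 1.59 for Ebi3 over Il27.

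The genes of the table closest to each subunit in pattern were found by the root-mean-square difference of log2 profiles over the 6 libraries, each centred on its own mean. Closest to Il12a were Inhba, a chain of activin A (0.24), Ass1, which makes argininosuccinate (0.52), and Ffar2, a receptor for short-chain fatty acids (0.73). These distances take the 0 reads of the 3-week control at the deposited 1 and rest on few reads in 3 other libraries. With that library at the floor of 3 reads, Inhba stood at 0.76 and was only the 10th nearest gene, and Ass1 and Ffar2 stood at 0.52 and 0.71. Inhba had 119, 87.6 and 434 normalized counts in Il10rb+/- and 593, 1520 and 29090 in Il10rb-/- MΦs at 1, 3 and 12 weeks. Closest to Il23a were the lactate transporter Slc16a3 (0.30), Agpat9 (0.37) and the growth factor Nrg1 (0.48). Slc16a3 had 171, 219 and 1367 normalized counts in Il10rb+/- and 403, 769 and 15651 in Il10rb-/- MΦs.

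Closest to Il12b were the IL-2 receptor chain Il2ra (0.42), the chemokine Ccl22 (0.49) and the exonuclease Isg20 (0.52). Ccl22 shared the low 3-week Il10rb+/- value, with 813, 190 and 3136 normalized counts in Il10rb+/- and 1093, 1277 and 6669 in Il10rb-/- MΦs. Closest to Il27 were the aminopeptidase Anpep (0.27) and the interferon-induced genes Oas2 (0.28) and Gbp3 (0.28). Closest to Ebi3 were Poc1b (0.04), Smim10l1 (0.07) and Ccdc28a (0.08). Among the subunits, Il12a and Il23a were the most alike (1.00), ahead of Il12b and Il23a (1.17) and of Il27 and Ebi3 (1.25). Il27 and Ebi3 were less alike than most pairs with either gene, since the median gene differed from Il27 by 0.95 and from Ebi3 by 0.52. The value for Il12a and Ebi3, which form IL-35, was 3.04, against 2.75 for the median gene and Il12a.

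The receptors of these cytokines were low apart from the shared chain Il6st. None of 5 passed the limma test, and none was over 3-fold higher at 1 or 3 weeks. At 12 weeks 2 of 5 were over 3-fold higher: the IL-12 receptor chain Il12rb2 (306 against 46.8 normalized counts) and Il23r (50.3 against 12.3). The share of all genes tested was 4.03%. Il23r reached the filter of 50 normalized counts through this 12-week Il10rb-/- library alone, and Il12rb2 through Il10rb-/- libraries alone. Their count past the mark therefore follows in part from the filter. Il27ra had 158 against 95.03 and Il12rb1, shared by the IL-12 and IL-23 receptors, 103 against 38.3. The median log2 ratio of the 5 was -0.62, -0.19 and 1.42 at 1, 3 and 12 weeks.

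Among 8 genes of the signalling chain below these receptors (kinases, STATs and SOCS inhibitors), 0 passed the limma test. Stat4, which transmits IL-12, had log2 ratios of 0.42, 0.31 and 0.56 at 1, 3 and 12 weeks, and Stat3, which transmits IL-23, had 0.00, 0.14 and 0.30. All 8 were higher in the 12-week Il10rb-/- library, with a median of 0.62, as were 52.0% of all genes tested.

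Of 15 genes listed as activators of the subunit genes, 11, 12 and 11 were higher in the Il10rb-/- library at 1, 3 and 12 weeks. The median log2 ratios were 0.20, 0.11 and 0.35. Of all genes tested, 46.0%, 52.1% and 52.0% were higher at these ages. No activator was over 3-fold higher and 0 of 15 passed the limma adjusted test. Relb, Nfkb1 and Nfkb2 (NF-κB chains) and Cebpb had an unadjusted limma p under 0.05, with log2 differences of 0.46, 0.49, 0.51 and 0.71. Among all genes 4.4% were higher at that mark. Lower at 12 weeks were Irf4 (1168 against 3528 normalized counts), Batf (1036 against 1894), Batf3 (181 against 476) and Irf3 (544 against 732). Of 8 known repressors, 4, 3 and 3 were higher, with medians of 0.09, -0.05 and -0.06, and 0 passed the limma adjusted test. Nfil3 alone of the 8 had an unadjusted limma p under 0.05 (0.0313), with a log2 difference of 0.94. Nfil3, through which IL10 represses Il12b, had log2 ratios of 0.77, 0.19 and 1.84, and Maf, a repressor of p40 and p35 and an activator of Il10, had -0.06, -0.31 and -3.05.

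Of 8 genes made by lymphocytes that respond to IL-12 and IL-23, 6 passed the filter and 0 passed the limma adjusted test. Ifng, Tbx21, Il17a and Il17f reached the filter through the 12-week Il10rb-/- library alone, and Csf2 through the 1-week Il10rb-/- pool alone. Ifng had 2, 3 and 51 reads in Il10rb+/- and 0, 4 and 795 in Il10rb-/- MΦs, and Il17a had 1, 0 and 0 reads in Il10rb+/- and 0, 10 and 346 in Il10rb-/- MΦs, at 1, 3 and 12 weeks. Il22 had 93, 2 and 624 reads in Il10rb+/- and 8, 48 and 620 in Il10rb-/- MΦs, and at 12 weeks 295 and 395 normalized counts. All 9 listed targets of interferon-γ were higher in Il10rb-/- MΦs at 3 and at 12 weeks, 6 and 7 of them over 3-fold, and 3 of 9 were higher at 1 week. Of all genes tested, 46.0%, 52.1% and 52.0% were higher at 1, 3 and 12 weeks. Over 3-fold higher were 1.34% at 3 weeks and 4.03% at 12 weeks. The target Nos2 reached the filter in Il10rb-/- libraries alone, so that its count follows in part from the filter. Gbp2 had log2 ratios of -0.28, 2.54 and 4.49 and Cxcl9 had 1.04, 3.55 and 3.92, and 0 of the 9 passed the limma adjusted test.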

How the data were processed

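The deposited table holds a normalized signal per gene: the authors trimmed single-end reads with Trim Galore, aligned them to mm10 with TopHat, counted them with HTSeq and divided each library by its DESeq size factor, with 0 shown as 1. Versions, annotation and strand setting are not given in the sources used here. Within each library 100% of the other values were whole multiples of 1 step (tolerance 0.01 read), worth 0.473 to 2.43 normalized counts, and reads were recovered from it. Because the table holds normalized values, no count model was used. Genes at 50 or more normalized counts in at least 1 library (11067) were fitted as log2(value + 1) with limma 3.58.1 in R 4.3.3, with genotype, age and a mean-variance trend. The fit was tested on simulated data. Exon lengths came from GENCODE M21 (14085 of 14097 genes found), with Python 3.11.15. The named genes are the 5 members, Il10rb, the 3 genes nearest to each member and listed genes. The members and lists were chosen with earlier results of these data known. Alternatives were another pseudocount, no filter, a filter on the libraries compared, scaling by total reads or TMM, other gene lengths and each library left out. No column was left unmapped.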

Additional observations from a re-analysis of the deposited data

Results flagged for a closer look

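The genotype ratio of 2 subunit genes and of 2 subunit pairs took opposite directions at different ages, each beyond counting error. With 1 library per genotype and age, the difference between ages was not tested. The log2 ratio of Il27 (Il10rb-/- over Il10rb+/-) was -1.02 at 1 week, 0.57 at 3 weeks and 1.90 at 12 weeks, and that of Ebi3 was 0.21 at 1 week and -0.48 at 12 weeks. The log2 ratio of Il12b to Il23a differed between the genotypes by -1.51 at 1 week, 0.97 at 3 weeks and -2.58 at 12 weeks, and that of Ebi3 to Il27 by 1.22 at 1 week and -2.38 at 12 weeks. The 1-week values compare pools that also differ in Y-linked reads, and the 3-week control is the shallowest library, with 33 reads on Il12b, 45 on Il23a and 50 on Il27.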

How the results depend on the processing

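No paired analysis was possible because every library bears the same replicate number; pairing by age was used instead, as the age term of the fit and in the sign-flip test. The edgeR and DESeq2 alternatives were not run, since the deposited values are normalized and show 0 as 1. Leaving out 1 library at a time gave 0 to 1 called subunit genes, the 1 being Il23a, and a log2 difference across ages of -0.22 to 1.23 for Il27 and of -0.18 to 0.16 for Ebi3, whose sign turned without a 12-week library (-0.22 and 0.16). With a pseudocount of 10 the number of subunit genes over 3-fold higher at 1 week was 1, as Il12a no longer passed. With 0 reads at the floor, also chosen after seeing the data, the distance of Inhba to Il12a was 0.757. Without length correction the log2 ratio of Ebi3 to Il12a in 12-week Il10rb-/- MΦs was -0.029. Leaving out 1 age moved the mean genotype difference of the log2 pair ratio between -1.42 and 0.38 for Ebi3 to Il27 (0.38 without 12 weeks, chosen after seeing the data), between -2.04 and -0.27 for Il12b to Il23a, between -3.53 and -0.13 for Il12b to Il12a and between -4.42 and -1.85 for Ebi3 to Il12a. The other results kept their direction under the alternatives run, except Il12b to Il23a in 1-week Il10rb-/- MΦs, where the interval included 0 (-0.17 with the longest transcript as length). At 3 weeks depth limits Il12a, with 0 reads in the control.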
